A study of Mus musculus with 8 samples.

Results

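A set of 41 genes that drive or carry out DNA replication and cell division was followed in sorted CD8+ T cells of mouse spleen. The genes were chosen by name, with earlier results of these data known. Each of the 41 had a row among the 29426 gene symbols of the count table. RNA was sequenced in 8 libraries, 2 in each of 4 groups, WT-TN and mCre-TN for the first subset and WT-MP and mCre-MP for the second. WT and mCre are the genotype labels; the series title ties the Cre to miR-29, and the labels name neither the allele nor the promoter of the Cre, nor the age and number of mice behind a library. The protocol names both adult and neonatal spleens. TN and MP are the labels of 2 sorted subsets of naive CD8+ cells, whose gates are not described; the design text of the series writes TN and VM, and Cre- for the genotype. All 4 groups shared the bead enrichment for CD8 and a flow cytometry sort on CD8, CD4, CD44 and CD122.

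Cells enter the cycle when D-type and E-type cyclins with their kinases release E2F transcription factors, which switch on the genes of DNA synthesis. Replication origins are licensed in G1 by loading the MCM helicase with Cdc6 and Cdt1, and geminin blocks a second loading. Mitosis is then driven by Cdk1 with cyclins A and B and closed by the anaphase-promoting complex. Circulating T cells are mostly quiescent, and memory-phenotype CD8+ cells are known to divide slowly under the cytokine IL-15.

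Total counts ran from 13479586 to 30057658 per library. The CD8 T cell markers Cd3e, Cd3d, Cd3g, Cd8a and Cd8b1 summed to 4500 to 4890 CPM, counts scaled to a common library total, over the libraries, abundant in each. In bulk RNA a larger share of cycling cells and more RNA per cycling cell cannot be told apart. Where nothing else is said, a change is a log2 fold change from edgeR's quasi-likelihood test with its standard error (SE). The word called is kept for genes whose adjusted p was under 0.05 over all 12313 genes tested. Of the 41 members, 40 passed the filter on low counts. Ube2c, which encodes a ubiquitin-conjugating enzyme of mitotic exit, did not, with 13 counts in TN and 22 in MP of WT, and 7 and 17 in mCre.

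Among the members, most genes of origin licensing were well represented in every group, whereas those of mitotic entry and exit were scarce. The contrast did not extend to every cell cycle gene outside the members. The mitotic genes Smc4 and Racgap1 averaged 669 and 155.7 CPM over the 8 libraries, and the replication genes Orc1 and Mcm10 1.51 and 0.615 CPM, not scaled for length. Per kilobase of exon and averaged over the 8 libraries, Pcna, the sliding clamp of the replication fork, was highest at 50.8 CPM per kb. The MCM helicase genes followed, from 28.1 CPM per kb for Mcm6 to 11.3 for Mcm2, with the licensing factor Cdt1 at 15.9. The median was 15.4 CPM per kb over the 11 licensing and fork genes and 0.257 over the 9 genes of mitotic entry and exit. The lowest members were Bub1, a spindle checkpoint kinase, at 0.0787 and Ube2c at 0.135 CPM per kb. Cdc6, which loads the MCM helicase beside Cdt1, lay far below the MCM genes at 0.339 CPM per kb. Cdc45, of the same role, was also far below them at 0.869.

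**Figure D1:**
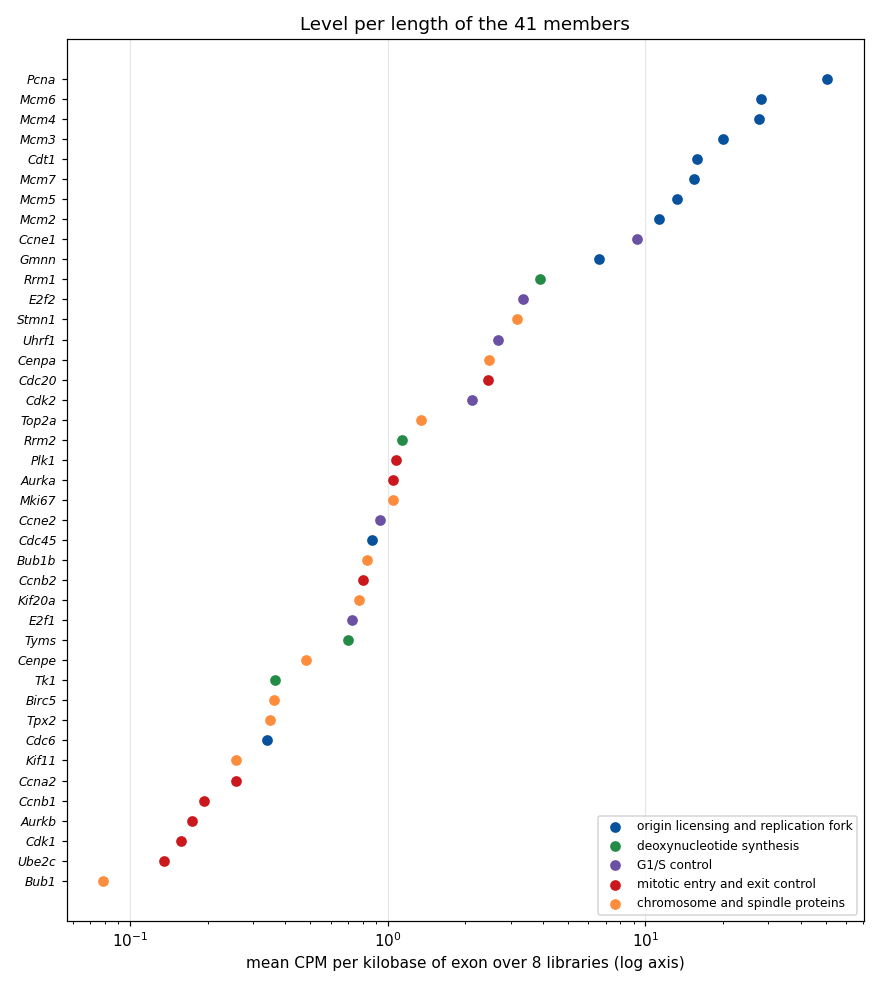
Mean level of each of the 41 members over the 8 libraries, in CPM per kilobase of exon on a log axis, coloured by role. The 8 genes at the top, from Pcna at 50.8 to Mcm2 at 11.3, belong to origin licensing and the replication fork, and mitotic genes fill most of the lower end.

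MP was compared with TN in each genotype, the contrast between the 2 sorted subsets. In both genotypes 7 members rose, Mki67, E2f2, Rrm2, Stmn1, Mcm4, Mcm3 and Pcna, and 3 fell, Cdk2, Cenpa and Mcm7. Mki67 rose by 1.23 in WT and 1.69 in mCre and Rrm2 by 0.90 and 0.92, while Cdk2 was lower (−0.97 and −1.05). Among Mcm2 to Mcm7 and Pcna, no change was larger than the 0.35 of Mcm4 in WT. In WT, 8 of 40 tested members rose and 3 fell, and 29 did not pass the test. Over all 12313 genes, 31.7% were called in this comparison, 16.2% higher and 15.6% lower, against 27.5% of the members, 20% higher and 7.5% lower, so the number of called members was near the background. In mCre, 15 members rose and 4 fell, and 21 did not pass. There the background was 32.5%, with 17% higher and 15.5% lower, against 47.5% of the members, 37.5% higher and 10% lower. As the members were chosen with earlier results known, these shares only describe them.

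The median change of the tested members was 0.25 in WT and 0.29 in mCre, beside medians of −0.0019 and 0.0024 over all genes tested. Of the 40, 31 had a positive and 7 a negative change in both genotypes. Both comparisons rest on different libraries, though a single fit gave them a shared estimate of the spread. The 10 members called in the same direction in both made up 90.9% of the WT calls and 52.6% of the mCre calls. The matching shares over all genes were not counted, so neither this overlap nor the shared signs can be read as particular to the members. In WT, 22 members had both MP libraries above both TN libraries (background 30%) and 5 had both below (34.1%); in mCre the numbers were 21 (29.5%) and 5 (37.5%).

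The WT count depended on single libraries: 4 members were called without WT-MP replicate 1 and 6 without WT-TN replicate 2. The mCre count was 9 without mCre-TN replicate 1 and 11 without mCre-MP replicate 2. Sums of some marker lists of other cell types differed between the subsets, though the genes within a list did not all move together. Their part in the results was not tested. The 5 NK cell markers summed to 46.4 to 53 CPM in TN and 219 to 232 in MP of WT, and to 34.2 to 39.8 and 188 to 212 in mCre. Nearly all of it came from Eomes, with means of 46.7 CPM in TN and 218 in MP of WT, and 35 and 193 in mCre. Ncr1 and Klrb1c were at 0 in both TN groups. In MP their means were 0.45 and 2.4 CPM in WT, and 0.387 and 2.01 in mCre. A sum carried by 1 gene does not identify a cell type. Kit had a mean of 1.458 CPM in TN and 0.889 in MP of WT, and 0.839 and 2.65 in mCre. The 5 plasma cell markers summed to 34.1 to 39.5, 53 to 55.4, 41.5 to 41.9 and 62.3 to 64.2 CPM in the order WT-TN, WT-MP, mCre-TN, mCre-MP. Most of it came from Xbp1, and Sdc1 was at 0 in WT-TN. Mzb1 averaged 0.209, 0.0686, 0.0592 and 0.245 CPM in the same order of groups. Prdm1 went from a mean of 2.11 CPM in TN to 11.5 in MP of WT, and from 1.23 to 12.8 in mCre. Jchain had a lower mean in MP (0.898 against 0.543 CPM in WT and 0.479 against 0.401 in mCre). The 5 thymocyte markers summed to 4.04 to 7.79, 1.05 to 1.71, 3.32 to 6.02 and 0.49 to 1.34 CPM, with Rag2 at 0 in all 4 groups. Most of it came from Dntt, with means of 4.36 CPM in TN and 0.743 in MP of WT, and 4.55 and 0.706 in mCre. Cd4 had a higher mean in MP (0.0807 against 0.153 CPM in WT and 0.118 against 0.21 in mCre). Rag1 was at 0 in both mCre groups, with means of 1.43 in WT-TN and 0.485 in WT-MP. The 5 B cell markers summed to 19.2 to 20.6 CPM in TN and 16.4 to 18.1 in MP of WT, and to 16.7 to 21.6 and 18.9 to 20.2 in mCre. The 5 dendritic cell markers stayed between 6.03 and 7.79 CPM in every library. The 5 granulocyte precursor markers summed to 3.38 CPM in mCre-MP replicate 2 and to at most 0.699 in any other library. In mCre-MP replicate 2, Mpo had 24 and S100a9 27 counts, against 0 of each in mCre-MP replicate 1. Their part in the calls that were lost without mCre-MP replicate 2 was not tested.

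**Figure D2:**
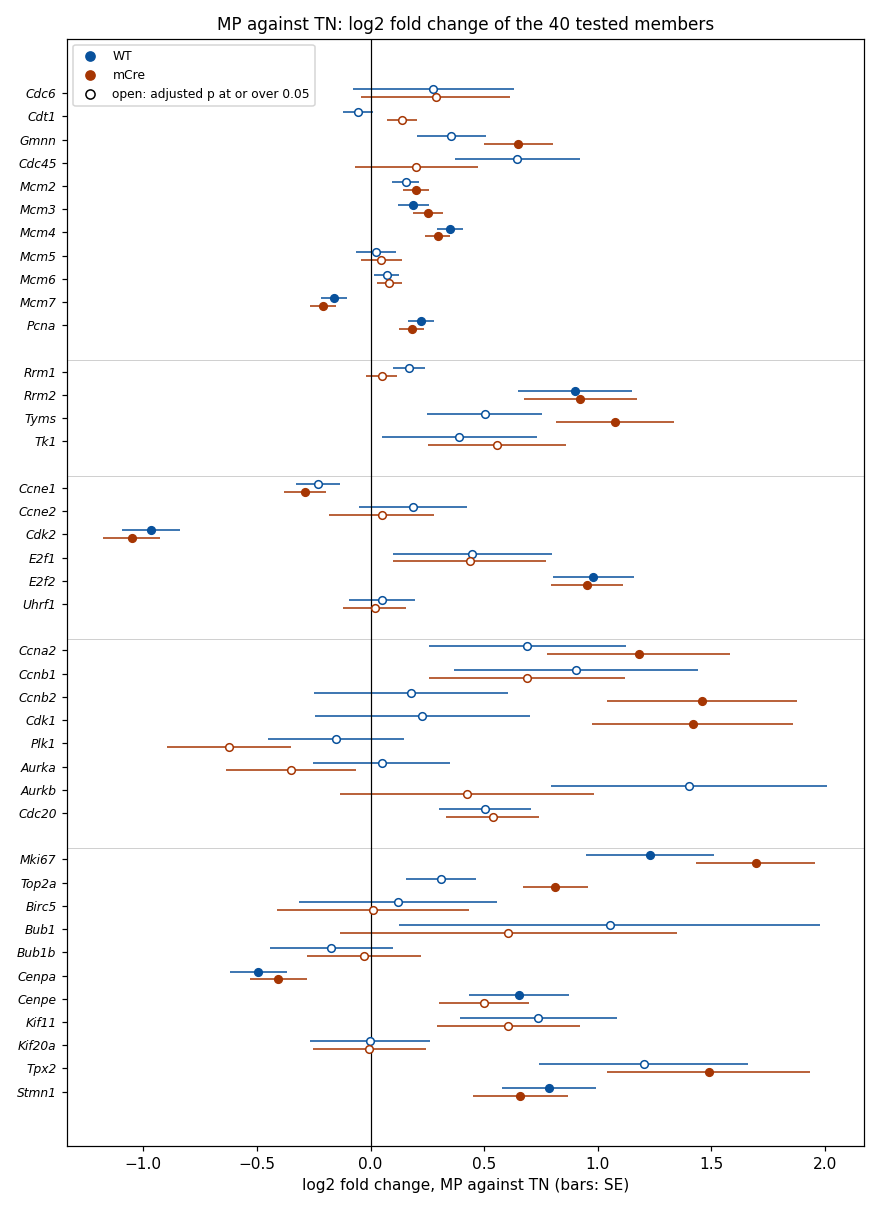
Log2 fold change of MP against TN for the 40 tested members, in blocks by role, with WT in blue and mCre in rust red; bars are standard errors and filled points passed the test. Mki67 (1.23 and 1.69) and Cdk2 (−0.97 and −1.05) mark the far ends among members called in both genotypes.

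Among the licensing and fork genes, 3 of 11 rose and 1 fell in WT, and 5 rose and 1 fell in mCre. Over all genes, 31.7% were called in WT and 32.5% in mCre. The counts by role, here and below, are too small to be set against those shares. Mcm4, a subunit of the hexameric MCM helicase (GRCm38 chromosome 16, 15623897 to 15637400, minus strand), had levels of 86.6 and 85.1 CPM in TN against 113 and 103 in MP of WT, and 90.5 and 91.4 against 110 and 108 in mCre. Both MP libraries lay above both TN libraries in each genotype. It rose by 0.35 (SE 0.0562, adjusted p = 7.47e-05) in WT and by 0.30 (SE 0.0547, adjusted p = 0.000307) in mCre.

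Mcm7, another subunit of the same ring (chromosome 5, 138164583 to 138172422, minus strand), went the other way. It was at 76.9 and 74.5 CPM in TN against 64.7 and 69.2 in MP of WT, and at 71.6 and 69.8 against 59.9 and 59.6 in mCre, so that the MP libraries were the lower ones. It fell by 0.16 in WT (SE 0.058, adjusted p = 0.0408) and by 0.21 in mCre (SE 0.0573, adjusted p = 0.00783). In WT the call was lost under 11 of 16 other settings, with an adjusted p of 0.0263 to 0.306 over them, and the mCre call without mCre-TN replicate 1 (0.0681). Of the 50-base stretches of its transcripts, 16.5% also occur in the annotated transcript Gm5487, Mir93 and Mir25 lie within it, and Ap4m1 and Cops6 overlap it on the opposite strand, so its reads may have been shared.

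Pcna (chromosome 2, 132249162 to 132253314, minus strand) had levels of 117 and 117 CPM in TN against 141 and 129 in MP of WT, and 109 and 114 against 121 and 125 in mCre. The 2 MP libraries were above the 2 TN libraries in either genotype. It rose by 0.22 (SE 0.0556, adjusted p = 0.00454) in WT and 0.18 (SE 0.055, adjusted p = 0.0161) in mCre. Leaving out WT-MP replicate 1 ended the WT call (0.0909), and the mCre call was lost without mCre-TN replicate 1 (0.143) or mCre-MP replicate 2 (0.141). Its pseudogene Pcna-ps2 shares 19.1% of its 50-base stretches.

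Mcm3 was at 71.1 and 71.1 CPM in TN against 86.4 and 73.6 in MP of WT, and at 69.4 and 67.7 against 82.4 and 77.6 in mCre. The gain was 0.19 in WT (adjusted p = 0.0443) and 0.25 in mCre (0.00667). WT-MP replicate 1 stood well above replicate 2, and without it the WT change was 0.07 (0.556). The WT call was also lost without either WT-TN library (0.112 without replicate 1 and 0.12 without replicate 2), with library totals only (0.0642), with DESeq2 (0.113), with voom (0.082) and with the WT groups alone (0.0657). The mCre call was lost without mCre-MP replicate 1 (0.0735).

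Mcm2 was at 74.1 and 70.9 CPM in TN against 81.9 and 77.6 in MP of WT, and at 73.5 and 78.1 against 87 and 83 in mCre. It rose in mCre (0.20, SE 0.0573, adjusted p = 0.0111) and stood just outside the threshold in WT (0.15, SE 0.0591, adjusted p = 0.0534), where it passed under 5 of the other settings, among them no expression filter (0.026). The mCre call was lost without mCre-TN replicate 1 or mCre-MP replicate 1, with an adjusted p of up to 0.143. The remaining helicase genes Mcm5 and Mcm6 were not called, with changes of 0.02 and 0.07 in WT and 0.05 and 0.08 in mCre.

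Gmnn encodes geminin, the inhibitor of Cdt1 that accumulates from S phase to mitosis. It was at 9.94 and 8.88 CPM in TN against 13.3 and 10.3 in MP of WT, and at 6.65 and 7.3 against 9.97 and 11.3 in mCre. MP exceeded TN in each genotype without overlap, and the gene rose in mCre (0.65, SE 0.152, adjusted p = 0.0026), whereas WT gave 0.35 (SE 0.152, adjusted p = 0.0849), or 0.53 (0.0276) without WT-MP replicate 2. Cdt1, which geminin binds, changed by −0.06 in WT and 0.14 in mCre without a call, and Cdc6 (0.28 and 0.29) and the fork helicase factor Cdc45 (0.65 and 0.20) were not called either.

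Of the 4 genes of deoxynucleotide synthesis, 1 rose in WT and 2 in mCre, and none of the 4 had a negative change. Rrm2, the S phase subunit of ribonucleotide reductase (chromosome 12, 24708241 to 24714146, plus strand), was at 2.67 and 2.26 CPM in TN against 5.09 and 3.93 in MP of WT, and at 2.2 and 1.76 against 3.32 and 4.07 in mCre. The groups did not overlap within a genotype. It rose by 0.90 (SE 0.252, adjusted p = 0.00988) in WT and 0.92 (SE 0.248, adjusted p = 0.00738) in mCre. The WT call was lost without WT-MP replicate 1 (0.116) or WT-TN replicate 2 (0.0839), and the mCre call without mCre-TN replicate 2 (0.0577) or mCre-MP replicate 2 (0.0971). Rrm1, the large subunit that is made throughout the cycle, was at 42.09 ± 0.356 CPM in TN and 46.83 ± 2.29 in MP of WT, and at 41.46 ± 0.691 and 41.95 ± 0.602 in mCre (SD, n = 2 each), and was not called (0.17 and 0.05).

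Tyms, thymidylate synthase, was at 4.08 and 3.87 CPM in TN against 6.8 and 4.3 in MP of WT, and at 1.93 and 3.11 against 4.8 and 5.29 in mCre. The lowest values were those of mCre-TN. It rose in mCre (1.08, SE 0.259, adjusted p = 0.0033) but not past the threshold in WT (0.50, SE 0.253, adjusted p = 0.146), where 0.80 passed without WT-MP replicate 2 (0.0356), and the mCre call was lost without mCre-TN replicate 1 (0.0871). Tk1, the salvage enzyme thymidine kinase, gave 0.39 and 0.56 without a call.

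Of the 6 genes of G1/S control, 1 rose and 1 fell in WT, and 1 rose and 2 fell in mCre. Cdk2, the kinase partner of cyclins E and A (chromosome 10, 128697939 to 128705031, minus strand), had levels of 18.8 and 16.5 CPM in TN against 9.71 and 8.04 in MP of WT, and 18 and 17.9 against 8.39 and 8.55 in mCre. Every TN library was far above every MP library. It fell by 0.97 in WT (SE 0.127, adjusted p = 6.51e-06) and by 1.05 in mCre (SE 0.124, adjusted p = 1.81e-06), and both calls were kept under the 16 other settings. The gene Pmel overlaps 34 bases of its exons on the opposite strand. Ccne1, the cyclin E1 that activates Cdk2, was at 27.8 and 25 CPM in TN against 23.5 and 20.8 in MP of WT, and at 29 and 26.6 against 23.2 and 21.6 in mCre. TN was higher in each genotype. It fell in mCre by 0.29 (SE 0.0934, adjusted p = 0.0233), lost without mCre-TN replicate 1, without mCre-MP replicate 2 or with DESeq2 (adjusted p up to 0.198), and had −0.23 (SE 0.0969, adjusted p = 0.0789) in WT.

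E2f2, an E2F transcription factor of the activator class that also restrains T cell proliferation in mice (chromosome 4, 136172394 to 136196057, plus strand), was at 9.64 and 8.82 CPM in TN against 18.7 and 17.2 in MP of WT, and at 11 and 15.9 against 22.2 and 27.8 in mCre. MP was above TN in either genotype. It rose by 0.98 (SE 0.178, adjusted p = 0.000999) in WT and 0.95 (SE 0.159, adjusted p = 0.000503) in mCre, under all 16 other settings as well. E2f1 (0.45 and 0.44), the second cyclin E gene Ccne2 (0.19 and 0.05) and Uhrf1, which guides maintenance DNA methylation (0.05 and 0.02), were not called. For Uhrf1, 15.4% of the 50-base stretches recur in other transcripts, and Ints8 overlaps Ccne2 on the opposite strand by 609 bases.

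Of 8 tested genes of mitotic entry and exit, 3 rose in mCre and 0 were called in WT, and the interaction of subset and genotype did not pass the test for any of them. Their counts were low. Ccna2, cyclin A2, was at 0.89 and 0.699 CPM in TN against 1.54 and 0.96 in MP of WT, and at 0.798 and 0.518 against 1.42 and 1.59 in mCre. MP lay above TN without overlap in each genotype, and it rose in mCre (1.18, SE 0.403, adjusted p = 0.0306), with 0.69 (SE 0.433, adjusted p = 0.249) in WT. The gene Exosc9 overlaps it on the opposite strand by 510 bases.

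Ccnb2, cyclin B2, was at 1.41 and 0.915 CPM in TN against 1.75 and 0.777 in MP of WT, and at 0.632 and 0.725 against 1.8 and 1.83 in mCre. The WT groups overlapped and the mCre groups did not. It rose in mCre (1.46, SE 0.417, adjusted p = 0.011), and WT gave 0.18 (SE 0.428, adjusted p = 0.795). Cdk1, the kinase of mitotic entry, was at 0.668 and 0.699 CPM in TN against 0.812 and 0.777 in MP of WT, and at 0.566 and 0.311 against 1.09 and 1.3 in mCre. It had 23 counts over both mCre-TN libraries. It rose in mCre (1.42, SE 0.443, adjusted p = 0.0187), with 0.23 (SE 0.472, adjusted p = 0.761) in WT. The mCre calls were lost without mCre-TN replicate 1 or mCre-MP replicate 2 for Ccnb2 (adjusted p up to 0.0949). For Cdk1 they were lost with DESeq2 and without mCre-MP replicate 1, mCre-TN replicate 2 or mCre-MP replicate 2 (up to 0.146), and for Ccna2 with DESeq2 and without any of the 4 mCre libraries (up to 0.165).

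Ccnb1, cyclin B1, was at 0.445 and 0.43 CPM in TN against 1.07 and 0.548 in MP of WT, and at 0.699 and 0.881 against 1.47 and 1.02 in mCre. MP lay above TN without overlap, but neither change passed (0.90, SE 0.537, and 0.69, SE 0.431), and 23.4% of its 50-base stretches recur elsewhere, first of all in Ccnb1-ps. Cdc20, an activator of the anaphase-promoting complex, had 0.50 (adjusted p = 0.0664) and 0.54 (adjusted p = 0.0505), just outside the threshold. Of its 50-base stretches, 10.4% recur elsewhere, first of all in Gm7856. The mitotic kinase genes Aurkb (1.40 and 0.42), Aurka (0.05 and −0.35) and Plk1 (−0.15 and −0.62) were not called. For Plk1 both mCre-MP libraries, at 2.13 and 2.04 CPM, were below the mCre-TN libraries at 3.33 and 3.21.

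Among 11 genes of chromosomes and the spindle, 3 rose and 1 fell in WT, and 4 rose and 1 fell in mCre. Mki67, the proliferation antigen Ki-67 that coats mitotic chromosomes (chromosome 7, 135689784 to 135716361, minus strand), had levels of 7.34 and 4.36 CPM in TN against 15.9 and 10.5 in MP of WT, and 6.25 and 4.66 against 18.4 and 16.8 in mCre. All 4 MP libraries were above all 4 TN libraries. It rose by 1.23 (SE 0.281, adjusted p = 0.0105) in WT and by 1.69 (SE 0.26, adjusted p = 0.00122) in mCre, or 2.34-fold and 3.24-fold, and was called under the 16 other settings in each. Top2a, the topoisomerase that untangles chromosomes (chromosome 11, 98992943 to 99024189, minus strand; the small gene Gm23451 lies in its exons), had levels of 9.42 and 10.2 CPM in TN against 14.2 and 9.83 in MP of WT, and 9.85 and 9.69 against 16.9 and 16.7 in mCre. The WT groups overlapped because WT-MP replicate 2 stayed at the TN level. It rose in mCre (0.81, SE 0.144, adjusted p = 0.000195) and had 0.31 (SE 0.154, adjusted p = 0.137) in WT, where 0.56 passed without WT-MP replicate 2 (0.00936).

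Promoter sequences are shown for Mki67 and Top2a, the usual marks of dividing cells, and for Cdk2, which had the smallest p among members lower in WT-MP. They run from 250 bases before to 50 bases after the start of transcription, 5′ to 3′ on the gene's strand, from RefSeq on GRCm38.p6. Capitals mark matches on either strand to the CHR (TTTGAA or TTCGAA) and the E2F element (TTTCCCGC, TTTGGCGC, TTTCGCGC or TTTGCCGC), the DNA elements through which cell cycle repressor and activator complexes are known to act, and to the CCAAT box (CCAAT). No match overlapped another in these 3 windows. The Mki67 window lies at chr7:135716330-135716629, that of Top2a at chr11:99024140-99024439 and that of Cdk2 at chr10:128705002-128705301, each on the minus strand.
Mki67: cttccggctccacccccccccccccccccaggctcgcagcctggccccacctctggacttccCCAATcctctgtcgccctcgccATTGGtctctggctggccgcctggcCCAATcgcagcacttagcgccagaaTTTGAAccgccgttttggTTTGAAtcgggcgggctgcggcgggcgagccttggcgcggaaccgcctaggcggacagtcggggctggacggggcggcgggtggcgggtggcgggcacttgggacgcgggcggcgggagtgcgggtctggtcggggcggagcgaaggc
Top2a: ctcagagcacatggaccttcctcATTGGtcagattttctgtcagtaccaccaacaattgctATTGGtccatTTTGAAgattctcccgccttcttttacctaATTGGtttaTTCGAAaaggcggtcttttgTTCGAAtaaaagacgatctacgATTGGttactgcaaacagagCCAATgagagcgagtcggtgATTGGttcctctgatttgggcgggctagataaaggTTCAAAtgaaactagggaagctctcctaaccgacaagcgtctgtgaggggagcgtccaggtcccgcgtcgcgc
Cdk2: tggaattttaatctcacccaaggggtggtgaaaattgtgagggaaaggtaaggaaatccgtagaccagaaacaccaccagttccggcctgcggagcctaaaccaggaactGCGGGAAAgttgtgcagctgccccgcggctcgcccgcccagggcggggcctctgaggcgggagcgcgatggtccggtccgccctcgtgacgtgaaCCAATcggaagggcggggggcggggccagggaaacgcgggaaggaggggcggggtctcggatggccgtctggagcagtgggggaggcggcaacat

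The Mki67 window held 2 CHR and 3 CCAAT matches and no E2F match, and that of Top2a 4 CHR and 6 CCAAT matches and no E2F match. Cdk2 had 1 E2F match and 1 CCAAT match and no CHR match. Of the 41 members, 33 had a promoter in the table. A CHR match was found in 48.5% of them and in 21.7% of all 27025 genes in the table, an E2F match in 30.3% against 2.6%, and a CCAAT match in 78.8% against 41.1%. By outcome, a CHR match was present in 6 of 11 members higher in MP, 2 of 4 lower and 7 of 17 tested members not called in MP against TN. An E2F match was present in 3, 2 and 5 of the same sets. No promoter sequence was available for Gmnn, Mcm4, Ccne2, Ccna2, Aurkb, Kif20a, Tpx2 and Stmn1, so none of these was searched for matches.

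Tpx2, which activates Aurora A on the spindle, was at 1.78 and 0.43 CPM in TN against 2.61 and 2.1 in MP of WT, and at 0.599 and 1.09 against 2.13 and 2.32 in mCre. The WT-TN replicates differed from each other more than the WT-MP replicates did. It rose in mCre (1.49, SE 0.448, adjusted p = 0.0171) and missed the threshold in WT (1.20, SE 0.46, adjusted p = 0.0567), where it passed under 6 of the other settings, among them leaving out WT-TN replicate 1 (2.46, adjusted p = 0.00183) and voom (0.0328). The mCre call was lost without mCre-TN replicate 1 or either mCre-MP library (adjusted p up to 0.18).

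Stmn1, a microtubule-destabilising protein, was at 6.53 and 3.98 CPM in TN against 9.79 and 7.72 in MP of WT, and at 4.33 and 3.83 against 6.32 and 6.35 in mCre. MP was above TN within each genotype. It rose by 0.78 (SE 0.207, adjusted p = 0.00676) in WT and 0.66 (SE 0.208, adjusted p = 0.02) in mCre. The WT call was lost without WT-MP replicate 1 (0.0949) or WT-TN replicate 2, where the change was 0.45 (0.151), and the mCre call without any of the 4 mCre libraries (up to 0.0998). The transcript Gm11223 carries most of the 17.9% of its 50-base stretches that recur elsewhere.

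The centromere genes moved apart. Cenpe, a kinetochore motor, was at 2.74 and 2.85 CPM in TN against 4.66 and 4.07 in MP of WT, and at 3.83 and 4.04 against 5.94 and 4.97 in mCre. It rose in WT (0.65, SE 0.22, adjusted p = 0.029), and mCre gave 0.50 (SE 0.198, adjusted p = 0.0604). In WT the call was lost with DESeq2 (0.0918), with voom (0.0526), and without WT-MP replicate 1 (0.158) or either WT-TN library (0.099 and 0.0868). Cenpa, the histone H3 variant of centromeres, was at 18.5 and 17.5 CPM in TN against 11.8 and 13.5 in MP of WT, and at 16.4 and 15 against 13.1 and 10.3 in mCre. The MP libraries were lower in either genotype. It fell by 0.49 (SE 0.127, adjusted p = 0.00548) in WT and by 0.41 (SE 0.126, adjusted p = 0.0176) in mCre. The WT call was lost without WT-MP replicate 1 (0.07) and the mCre call with DESeq2 (0.0539) and without mCre-TN replicate 1 (0.148) or mCre-MP replicate 2, where the change was −0.24 (0.269).

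The other 5 genes of this role were not called in either genotype. The spindle motor Kif11 had 0.74 and 0.61 and the checkpoint kinase Bub1 1.05 (SE 0.925) and 0.61 (SE 0.74), from 6 counts in TN and 18 in MP of WT, and 16 and 20 in mCre. Birc5, the survivin subunit of the chromosomal passenger complex, had 0.12 and 0.01, the checkpoint gene Bub1b −0.17 and −0.03, and the cytokinesis motor Kif20a changes of less than 0.01 either way. Cdc23 overlaps 1271 of the 4338 exonic bases of Kif20a on the opposite strand, so its reads may have been shared.

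**Figure D3:**
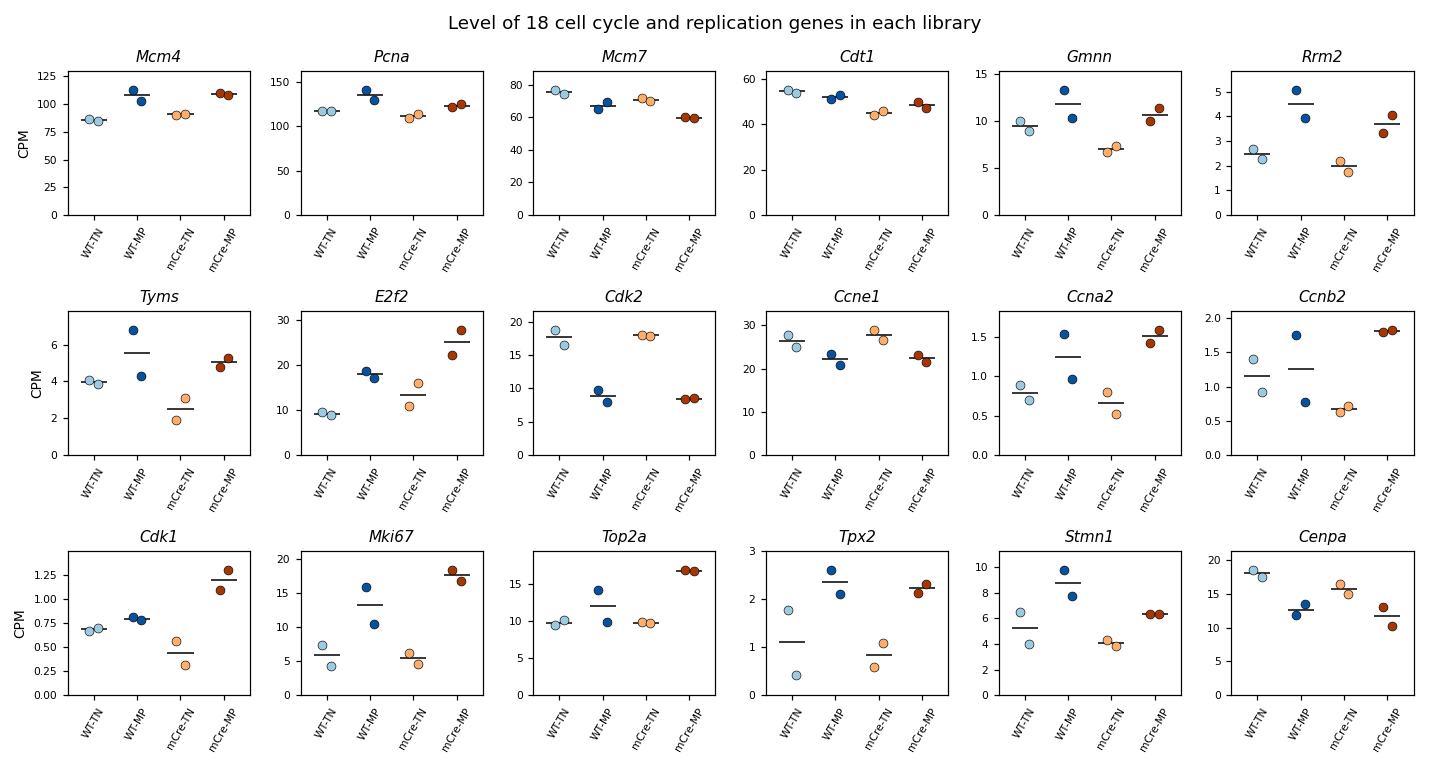
CPM of 18 members in each library (points) with the group mean (line); each panel has its own axis from 0. Mki67, Rrm2 and E2f2 are higher and Cdk2 and Cenpa lower in MP of both genotypes, and Ccnb2 and Cdk1 separate MP from TN most in mCre.

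Summed over all 41 members, the level was 861 ± 24 CPM in TN and 935.2 ± 61.2 in MP of WT, and 837 ± 0.849 and 916.8 ± 18 in mCre (SD, n = 2 each). MP exceeded TN 1.09-fold in WT and 1.1-fold in mCre, and the libraries did not overlap in either. Most of the sum came from licensing and fork genes, at 676.6 ± 12.7, 730.6 ± 39.2, 650 ± 1.2 and 703.1 ± 17.5 CPM. The chromosome and spindle genes summed to 52.37 ± 6.19 CPM in TN against 63.56 ± 8.32 in MP of WT (1.21-fold) and 50.34 ± 1.45 against 71.36 ± 5.12 in mCre (1.42-fold). Genes of mitotic entry and exit had ratios of 1.25 and 1.24, those of deoxynucleotide synthesis 1.18 and 1.12, and the G1/S genes 0.957 and 0.961. WT-MP replicate 1, at 978.4 CPM over all members, was above replicate 2 at 891.9.

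**Figure D4:**
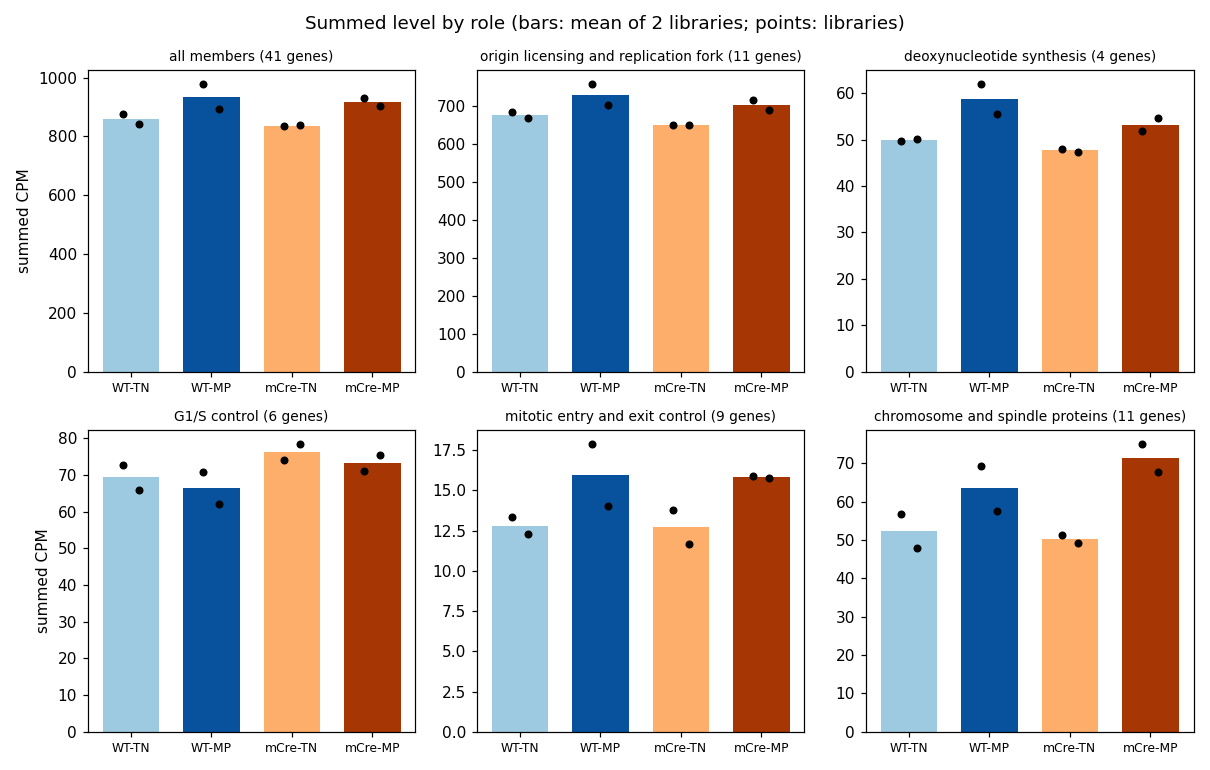
Summed CPM of all members and of each role, with bars for the mean of 2 libraries and points for the libraries. The sum over all members is 861 in WT-TN against 935.2 in WT-MP, and the chromosome and spindle genes reach 71.36 in mCre-MP.

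mCre was compared with WT within each subset. A single member was called in TN and 0 in MP by edgeR. In TN, 1 of 40 fell and 0 rose (2.5%), where 3.47% of all genes were called, 1.55% higher and 1.92% lower. For MP the background stood at 4.04% (2.08% higher and 1.97% lower). At an unadjusted p under 0.05, 2 members were higher and 3 lower in TN, beside 7.89% and 9.08% of all genes, and 2 higher and 4 lower in MP, beside 8.36% and 8.96%. DESeq2 and voom called 1 member in TN and 0 in MP. The median change of the members was −0.03 in TN and −0.02 in MP.

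Cdt1, the licensing factor that loads the MCM ring (chromosome 8, 122568015 to 122573554, plus strand), was the member called in TN. It was at 55.4 and 54.1 CPM in WT-TN, 44.2 and 45.8 in mCre-TN, 51.1 and 53 in WT-MP, and 49.9 and 47.1 in mCre-MP. The mCre libraries were below the WT libraries in both subsets, with a narrower gap in MP. It fell by 0.30 in TN (SE 0.0659, adjusted p = 0.0149), and MP gave −0.10 (SE 0.0645, adjusted p = 0.452). The difference between the subsets' changes was 0.19 (SE 0.0922, adjusted p = 0.84). The TN call was lost without any of the 4 TN libraries: WT-TN replicate 1 (0.063), WT-TN replicate 2 (0.0654), mCre-TN replicate 1 (0.133) or mCre-TN replicate 2 (0.0534).

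E2f2 had higher values in mCre than in WT in both subsets, with the libraries given above not overlapping, but did not pass the test in TN (0.51, SE 0.182, adjusted p = 0.167) or MP (0.49, SE 0.155, adjusted p = 0.116). It passed without the expression filter (0.00367 in TN and 0.000701 in MP), with the MP groups alone (0.0175), and without mCre-TN replicate 1 in TN (0.79, adjusted p = 0.0112) and in MP (0.0208) or mCre-TN replicate 2 in MP (0.0241). Top2a in MP stood just outside the threshold (0.48, SE 0.141, adjusted p = 0.0679). It passed without the expression filter (0.00824) and without WT-MP replicate 1 (0.77, adjusted p = 0.00946). Mki67 gave −0.06 in TN and 0.41 in MP, Pcna −0.09 and −0.13, and Mcm2 0.05 and 0.09, none of them called.

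The sum of the macrophage and monocyte markers, all 5 detected in each group, differed with the genotype. It was 16 to 21.9 CPM in TN and 13.8 to 26.3 in MP of WT, against 7.36 to 9.08 and 9.44 to 9.54 in mCre. Each of the 5 had a lower mean in mCre in both subsets, but not every gene separated by library. Adgre1 was at 0.807 CPM in WT-TN replicate 2 and 0.881 in mCre-TN replicate 2. Cd14 was at 0.0914 in WT-MP replicate 2 and 0.122 in mCre-MP replicate 2. The part of these markers in the genotype comparisons was not tested. For the interaction of subset and genotype, edgeR, DESeq2 and voom each called 0 of 40 members, and edgeR called 0.13% of all genes (0.0487% higher and 0.0812% lower). At an unadjusted p under 0.05, 3 members were higher and 0 lower, beside 3.03% and 2.89% of all genes. These were Top2a (0.50, SE 0.211, adjusted p = 0.77), Ccnb2 (1.28, SE 0.602, adjusted p = 0.84) and Cdt1. Mki67 (0.47, SE 0.387), Cdk1 (1.19, SE 0.654) and Tyms (0.57, SE 0.363) had an adjusted p of 0.965, 0.889 and 0.924. The larger number of calls in mCre than in WT is therefore not shown to be a difference between the genotypes.

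**Figure D5:**
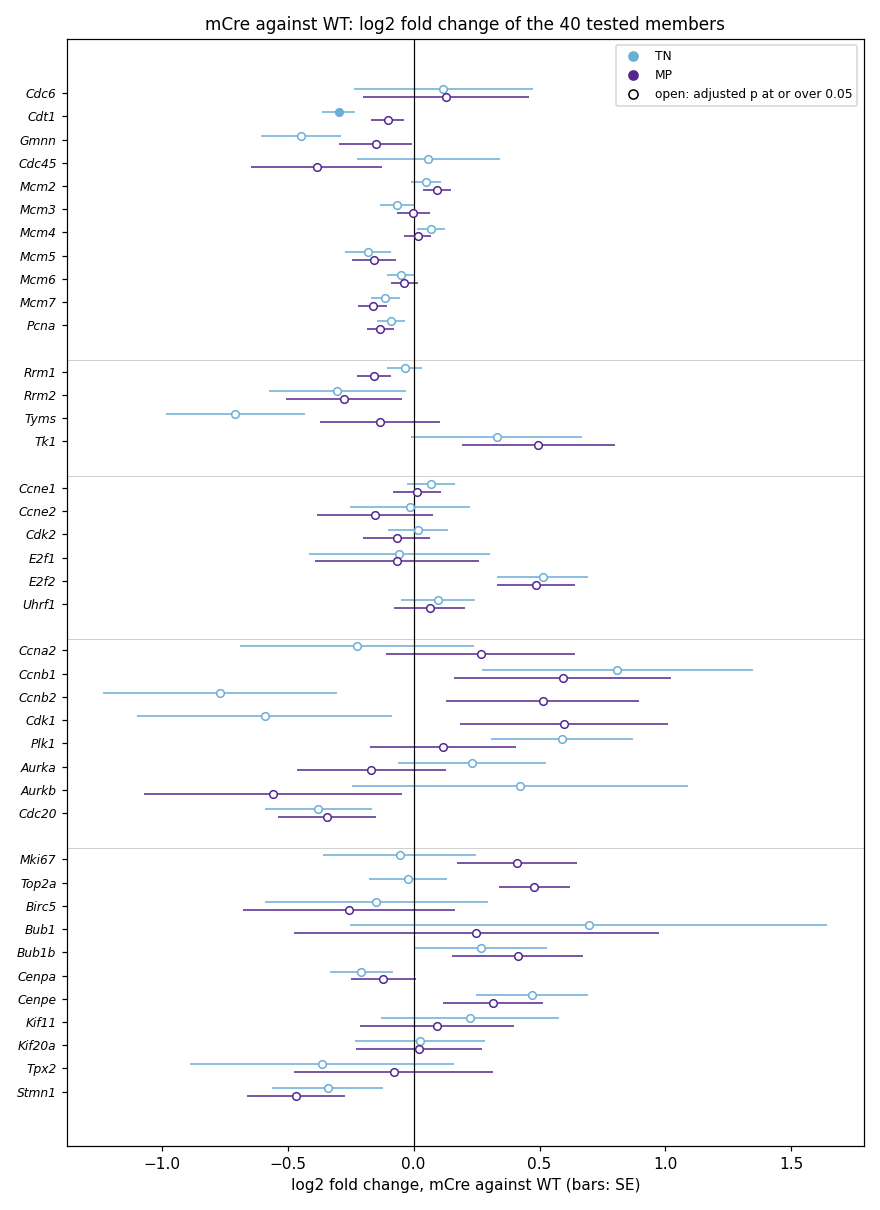
Log2 fold change of mCre against WT for the 40 tested members, in TN (light blue) and MP (purple), with standard errors; filled points passed the test. Cdt1 in TN (−0.30) is the only filled point, and E2f2 lies near 0.50 in both subsets.

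Of 128 further cell cycle genes listed by role, 127 had a row and 119 were tested. In MP against TN, 17 rose and 17 fell in WT, and 16 rose and 15 fell in mCre. Over all genes tested, 16.2% rose and 15.6% fell in WT, and 17% rose and 15.5% fell in mCre. Each count of the 119 lay under its share. The lists below are parts of these 119, and their counts only describe the genes. Among 38 other replication factors, 4 rose and 5 fell in WT, and 3 rose and 3 fell in mCre. Rpa2, a subunit of the single-strand binding protein RPA, rose (0.44, adjusted p = 9.43e-05, and 0.80, adjusted p = 3.37e-08), as did the polymerase delta subunit gene Pold2 (0.20 and 0.41). Timeless, a fork protection factor (−0.69, adjusted p = 1.87e-06, and −0.76, adjusted p = 4.2e-07), the polymerase epsilon subunit gene Pole2 (−0.72 and −0.65) and the polymerase alpha subunit gene Pola2 (−0.34 and −0.32) fell in both. Rpa1 fell in WT (−0.20) and had −0.06 in mCre. Gm26847 overlaps Timeless on the opposite strand, and Gm49384 and Gm47300 overlap Pole2 and Rpa1 on their own strand.

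Regulators upstream of E2F moved both ways too. Of 7 tested G1 cyclins and kinases, 3 rose and 1 fell in WT, and 3 rose and 2 fell in mCre. Ccnd3, the cyclin D3 of lymphocytes, rose by 0.50 (adjusted p = 3.22e-07) and 0.57 (4.66e-08), and its kinase partner Cdk4 by 0.30 and 0.23, while the phosphatase gene Cdc25a fell (−0.49 and −0.38). Ccnc rose in WT (0.31, against 0.19 in mCre), Ccnd2 rose in mCre (0.14, against 0.13 in WT), and Cdk6 fell in mCre (−0.25, against −0.05 in WT). Several of these have genes on the opposite strand, such as Bysl at Ccnd3 and Tspan31 at Cdk4.

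Of 16 tested pocket protein, E2F and MuvB genes, 1 rose and 1 fell in WT, and 3 rose and 2 fell in mCre. The E2F partner Tfdp1 rose (0.39 and 0.32) and Tfdp2 fell (−0.43 and −0.56) in both, while the calls of E2f4 (0.20), Rbl2 (0.13) and Rb1 (−0.25) were in mCre, with WT values of 0.01, 0.07 and −0.04. Of 5 tested CDK inhibitors, 0 rose and 1 fell in WT and 0 were called in mCre. Cdkn2d, which blocks Cdk4 and Cdk6, fell in WT-MP (−0.26, adjusted p = 0.00298, against −0.13 in mCre). It was higher in mCre than in WT within MP (0.31, adjusted p = 0.00568), with 0.17 in TN. Of 10 quiescence factors, 2 rose and 6 fell in WT and 1 rose and 4 fell in mCre. Foxo1 (−0.40 and −0.32), Foxp1 (−0.26 and −0.35), Tsc1 (−0.30 and −0.34) and Btg1 (−0.32 and −0.20) fell and Btg2 (0.36 and 0.33) rose in both. Tob1, an antiproliferative gene, rose in WT (0.35, against 0.10 in mCre) and was lower in mCre than in WT within MP (−0.30, adjusted p = 0.0114).

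Of 43 tested mitotic genes outside the 41, 7 rose and 3 fell in WT, and 6 rose and 4 fell in mCre. The securin gene Pttg1 (0.62, adjusted p = 3.9e-06, and 0.59, adjusted p = 5.73e-06), the checkpoint gene Mad2l1 (0.43 and 0.69) and Pkmyt1, which restrains Cdk1 (0.48 and 0.44), rose in both, and the cytokinesis motor gene Kif23 fell (−0.43 and −0.26). The condensin gene Ncapg2 rose in WT (0.79, against 0.43 in mCre) and Racgap1 in mCre (0.27, against 0.16 in WT). Between genotypes the phosphatase gene Cdc25b was lower in mCre-TN (−0.25, adjusted p = 0.0257), with −0.15 in MP.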

How the data were processed

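RNA-seq of 8 libraries was analysed from the deposited table, which holds raw read counts per gene symbol, not normalized. The submitters' processing notes name Trim Galore, HISAT2, featureCounts and the mm10 build; versions, annotation, strand setting and the treatment of multi-mapping reads are not stated in the labels. The kit kept strand, per the labels' protocols. Groups came from the sample titles.

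The genes and lists were chosen with earlier results of these data known. All genes entered a single fit in edgeR 4.0.16 (R 4.3.3; TMM scaling, filterByExpr, robust quasi-likelihood F test, 4 group means), which tested 12313 genes. Tests were two-sided with Benjamini-Hochberg adjustment over all genes tested. Levels are CPM of the library total. Members named with each library's value were those called in any of 5 contrasts, plus Mki67, Top2a, Pcna, Mcm2, Cdk1 and Ccnb1. Of each further list, up to 6 called genes with the smallest p in MP against TN and up to 3 in mCre against WT were named. Alternatives were RLE or library-total scaling, DESeq2 1.42.0, limma 3.58.1 voom, no or a stricter filter (CPM above 1 in 4 libraries), the 2 groups alone, the replicate number as a block and leaving out each library; with a library left out, the lone library was assumed to vary like the other groups. Exon lengths, overlaps and 50-base matches came from GENCODE M21 on GRCm38. The procedure was also run on simulated counts with 200 changed genes per comparison, far fewer than were called in MP against TN. Its outcome is not given here, and no result rests on it. A further list of cell type markers is not reported here. The labels do not say that the 2 libraries of a group came from separate animals, so p-values measure only the spread between these libraries, which may be technical. Replicates differed by more than sampling noise (chi-square per degree of freedom 4.13 to 6.12).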

Additional observations from a re-analysis of the deposited data

How the results depend on the processing

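Under the 8 alternatives that kept all or both groups' libraries, the number of members called was 8 to 12 for MP against TN in WT and 15 to 20 in mCre, all within 1.5 times the reported counts, and for the interaction it was 0 in each of 7. Leaving out single libraries gave 4 to 15 members in WT, 9 to 20 in mCre, 0 to 1 for mCre against WT in TN, 0 to 1 in MP and 0 for the interaction; the smaller sets hold fewer samples. Without the expression filter, 2 members were called for mCre against WT in TN and 2 in MP. With the 2 groups alone, 1 was called in MP. Of the 31 calls, 10 were kept under every alternative they could be tested in and 21 were lost under at least 1; none changed direction.

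The replicate numbers share no stated meaning, and the replicates' deviations correlated between groups at −0.0446 to 0.109. With the number as a block, 12 members were called in WT (Ccne1 added, −0.24, adjusted p = 0.0437), 20 in mCre, 1 in TN, 1 in MP (Top2a, adjusted p = 0.0471) and 0 for the interaction. Low depth limits several mitotic genes: over both WT-TN libraries Bub1 had 6 counts, Aurkb 10, Ccnb1 14 and Cdk1 22.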
